A study of Homo sapiens with 4 samples.

Results

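Expression of 10 genes that set or report the activity of mTORC1 was examined in Reh-6-MPR cells. The genes are the sestrins SESN1, SESN2 and SESN3, the inhibitors DDIT4, DEPTOR and TSC2, the Rag GTPases RRAGC and RRAGD, and the translation repressors EIF4EBP1 and EIF4EBP2. They were picked by symbol, with earlier results of these data known, and each was found once among the 29833 genes of the expression table. Reh is an established line of human acute lymphoblastic leukemia of the B lineage, and Reh-6-MPR is its derivative made resistant to 6-mercaptopurine (6-MP) by stepwise exposure to the drug and kept without it before experiments. The study sought genes involved in how such cells respond to both agents. For this, poly(A) RNA was sequenced after 48 h with PBS as vehicle, with 4 mM histidine, with 1 μg/mL 6-MP, or with histidine and 6-MP together, 1 library for each. All 4 groups share the resistant background, and the parental line was not part of these libraries.

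mTORC1 is a kinase complex that couples nutrients and growth factors to protein synthesis, cell growth and autophagy. Amino acids recruit it to the lysosome through the Rag GTPases, where RHEB activates it. Sestrins restrain the amino acid arm through the GATOR complexes, SESN2 being a leucine sensor, while REDD1, the protein of DDIT4, and the TSC complex restrain RHEB. Sestrins and REDD1 are known stress-response genes induced by DNA damage, nutrient loss or hypoxia, and the 4E-BPs are mTORC1 substrates that hold back cap-dependent translation. Transcript levels do not measure the activity of the kinase.

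The values rest on 12899122 reads for the combined treatment, 14316493 for vehicle, 15342296 for 6-MP and 15486376 for histidine. Because each treatment has a single library, differences have no replicate check and no p-value. Levels are given as FPKM, the reads of a gene divided by its length and by the depth of the library. The 95% intervals come from reads recovered from the FPKM, cover counting error only, and compare libraries rather than treatments. Fold changes are on the log2(FPKM + 1) scale, which understates the change of low genes. The 12750 genes whose mean FPKM over the libraries was 1 or more serve as the background. Of the B-cell leukemia markers, 7 of 8 were in the table and all 7 were at 1 FPKM or more in every library, their sum ranging from 993 to 1065 FPKM. Markers of other cells were not uniform. The 4 monocyte and granulocyte markers found summed to 27.0 to 31.2 FPKM in the vehicle and single-treatment libraries and to 43.7 with the combined treatment, mostly from MPO at 26.4 to 41.0 FPKM, while LYZ was at 0.0375 to 0.324 FPKM and at 1.39 with the combined treatment, CSF1R at 0.430 to 0.627 and at 1.25, and CD14 at 0.0392 to 0.170 and at 0.0470. The 2 stromal markers found summed to 8.68 to 9.39 and to 14.4 FPKM, mostly from PDGFRB. The 2 T-cell markers found summed to at most 0.365 FPKM, and the 2 erythroid markers found to at most 0.0647, both at 0 in 3 libraries. The combined library also had 25443 genes above 0, against 23635 to 23978 in the others, at the lowest depth. The part of these features in the results was not tested.

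In the combined treatment SESN1 and DDIT4 were about 3-fold as high as in any other library, SESN3 was higher by a smaller step, and EIF4EBP1 was lower. Histidine alone went with a lower SESN2, and with 6-MP alone all members except EIF4EBP2 were within counting error of vehicle. DEPTOR did not exceed 0.344 FPKM. In bulk RNA, a change in every cell and a change in some of the cells cannot be told apart, and neither can fewer cells of a type and less RNA per cell.

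Promoters of the 3 members that were most above vehicle in the combined library are shown, since these transcripts were high together there. The sequences are from RefSeq on GRCh38.p14, cover 250 bases before to 50 bases after an annotated start, and are written 5′ to 3′ on the strand of the gene. Of the 10 genes, 7 had a promoter in the table, 10 promoters in all. SESN1 has 3 annotated starts, and values per gene do not tell which of them was used. Capitals mark the only match to the motifs given here.
SESN1 promoter 1, chr6:109094797-109095096, minus strand: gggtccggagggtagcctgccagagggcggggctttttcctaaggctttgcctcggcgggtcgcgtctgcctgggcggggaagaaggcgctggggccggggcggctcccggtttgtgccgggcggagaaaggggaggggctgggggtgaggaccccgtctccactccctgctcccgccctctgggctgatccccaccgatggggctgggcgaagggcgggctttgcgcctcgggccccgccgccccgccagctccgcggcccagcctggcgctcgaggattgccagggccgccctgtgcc
SESN1 promoter 2, chr6:109009503-109009802, minus strand: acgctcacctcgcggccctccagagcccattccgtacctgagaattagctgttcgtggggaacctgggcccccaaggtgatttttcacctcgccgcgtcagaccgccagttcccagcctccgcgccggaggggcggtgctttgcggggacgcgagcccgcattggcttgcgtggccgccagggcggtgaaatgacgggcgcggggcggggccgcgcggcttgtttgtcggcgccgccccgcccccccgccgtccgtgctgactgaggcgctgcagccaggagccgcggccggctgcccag
SESN1 promoter 3, chr6:109008939-109009238, minus strand: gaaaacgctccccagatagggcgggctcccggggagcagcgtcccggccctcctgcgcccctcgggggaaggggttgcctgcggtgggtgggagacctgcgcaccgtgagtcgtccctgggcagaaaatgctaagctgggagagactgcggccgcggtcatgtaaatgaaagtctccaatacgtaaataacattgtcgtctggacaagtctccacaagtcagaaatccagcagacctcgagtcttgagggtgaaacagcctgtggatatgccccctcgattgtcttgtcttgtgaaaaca
SESN3 promoter, chr11:95232426-95232725, minus strand: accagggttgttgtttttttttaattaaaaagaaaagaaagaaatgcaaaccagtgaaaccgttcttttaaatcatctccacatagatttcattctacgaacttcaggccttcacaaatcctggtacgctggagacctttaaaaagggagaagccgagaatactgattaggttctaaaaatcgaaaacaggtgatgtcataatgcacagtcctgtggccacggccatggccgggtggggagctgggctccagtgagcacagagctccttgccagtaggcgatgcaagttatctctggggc
DDIT4 promoter, chr10:72273674-72273973, plus strand: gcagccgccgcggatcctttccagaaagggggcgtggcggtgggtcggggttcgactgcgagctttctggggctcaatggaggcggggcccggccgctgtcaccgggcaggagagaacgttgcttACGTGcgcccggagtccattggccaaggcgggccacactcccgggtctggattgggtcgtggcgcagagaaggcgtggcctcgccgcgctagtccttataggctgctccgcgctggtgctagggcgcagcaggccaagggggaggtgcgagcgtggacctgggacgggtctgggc

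The motifs given here, chosen after the values had been seen and searched on both strands, were the E-box CACGTG, the ATF4 and C/EBP element TGATGNAA, the hypoxia response core ACGTG, which every E-box also contains, the FOXO core GTAAACA and the cyclic AMP response element TGACGTCA. The DDIT4 window holds ACGTG at bases 126 to 130 of the window, at position -125 from the start, a match that 21.4% of all 35116 promoters of this length also have. The windows of SESN1, SESN2, SESN3 and EIF4EBP2 hold none of these 5. RRAGC holds an E-box at bases 139 to 144, and the first of 2 TSC2 promoters an E-box at bases 137 to 142 that runs into an ATF4 and C/EBP element at bases 141 to 148. E-boxes are in 7.26% of all promoters, the ATF4 and C/EBP element in 3.62%, GTAAACA in 3.42% and TGACGTCA in 1.85%. A match is a stretch of letters and not a shown binding site, and the absence of one says only that these letters are not in this window.

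SESN1 (ENSG00000080546, chr6:108986437-109094819, minus strand, GRCh38) encodes a stress-inducible sestrin. Its level was 4.31 FPKM with vehicle, 4.05 with histidine and 4.14 with 6-MP, and 13.1 with both. The first 3 libraries overlapped in their intervals, which ran together from 3.62 to 4.81 FPKM, and the combined library, at 12.3 to 14.0 FPKM, lay apart from them. The underlying reads numbered 316, 321, 325 and 868. Against vehicle the read ratio was 3.05-fold (95% interval 2.68 to 3.48), a log2 fold change of 1.41, and 248 of the 12750 genes had a higher one. Against 6-MP it was 3.18-fold (2.79 to 3.62), and against histidine 3.25-fold (2.85 to 3.70). Neither single treatment differed from vehicle beyond counting error for SESN1, with log2 fold changes of -0.073 for histidine and -0.048 for 6-MP.

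SESN2 (ENSG00000130766, chr1:28259518-28282491, plus strand) encodes a leucine-binding sestrin, and its pattern was another. It was listed at 3.51 FPKM with vehicle, 1.94 with histidine and 4.18 with 6-MP, and 4.08 with both, on 174, 104, 222 and 182 reads. The histidine library was the low one, its interval of 1.58 to 2.35 FPKM lying below the 3.01 FPKM where the lowest of the other intervals began. The ratio of histidine to vehicle was 0.553-fold (0.429 to 0.709), a log2 fold change of -0.62, and 172 of the 12750 genes had a lower one. The combined library was 2.10-fold above histidine (1.64 to 2.70). It did not differ detectably from vehicle, at 1.16-fold (0.938 to 1.44), or from 6-MP, at 0.975-fold (0.797 to 1.19).

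SESN3 (ENSG00000149212, chr11:95165513-95232541, minus strand), a sestrin known as a FOXO target, was the most abundant of the 3 except in the combined library. Its level was 7.11 FPKM with vehicle, 7.01 with histidine and 7.34 with 6-MP, and 11.7 with both. Only the combined library stood out, with a 1.65-fold ratio to vehicle (1.52 to 1.78), 1.59-fold to 6-MP (1.48 to 1.72) and 1.67-fold to histidine (1.54 to 1.80). The log2 fold change of 0.65 against vehicle did not reach 1, and 1683 of the 12750 genes had a larger one. Antisense genes that overlap the sestrins held few reads, 0 to 5 for AL390208.1 at SESN1 and 23 to 42 for AP000787.1 at SESN3.

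Summed over the family, sestrin transcripts amounted to 14.9 FPKM with vehicle, 13.001 with histidine and 15.7 with 6-MP, and 28.9 with both agents. The make-up shifted as well. SESN1 made up 28.9% of the sum with vehicle, 31.1% with histidine and 26.4% with 6-MP, and 45.4% with both. The share of SESN2 was 23.5%, 14.9%, 26.7% and 14.1% in the same order, so that it was low in both libraries that received histidine, although in the combined one SESN2 itself was near its vehicle level and the other sestrins were higher. SESN3 went from 47.6%, 53.9% and 46.9% to 40.5% and was second to SESN1 in the combined library, where the length-scaled read ratio of SESN1 to SESN3 was 1.12 (1.03 to 1.22).

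**Figure D1:**
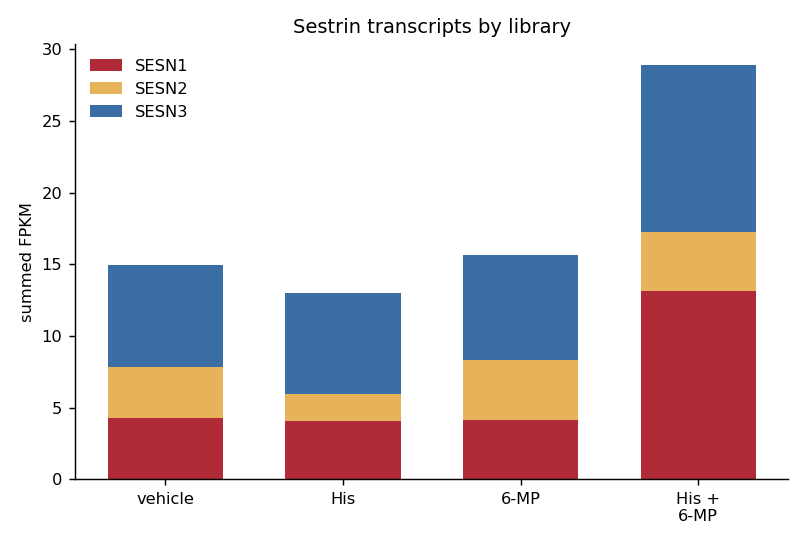
Sestrin transcripts in each library as summed FPKM, with the bars stacked from SESN1 at the bottom through SESN2 to SESN3 at the top, 1 library per bar. The sum is 28.9 FPKM with histidine plus 6-MP and 13.001 to 15.7 in the other libraries, and the SESN2 segment is thinnest with histidine alone.

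Among the inhibitors, DDIT4 (ENSG00000168209, chr10:72273919-72276036, plus strand) encodes REDD1, which acts through the TSC complex. DDIT4 was at 20.9 FPKM with vehicle, 20.5 with histidine and 22.4 with 6-MP, and 60.3 with both, on 634, 674, 729 and 1648 reads. The vehicle and single-treatment libraries overlapped in their intervals and the combined library did not overlap with them. Its ratio to vehicle was 2.88-fold (2.63 to 3.17), to 6-MP 2.69-fold (2.46 to 2.94) and to histidine 2.94-fold (2.68 to 3.22). The log2 fold change against vehicle was 1.48, exceeded by 222 of the 12750 genes. The antisense gene DDIT4-AS1 overlaps DDIT4 and was not analysed here.

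TSC2 (ENSG00000103197, chr16:2047967-2089491, plus strand) encodes tuberin, the GTPase-activating subunit that switches off RHEB. Its level was 4.92 FPKM with vehicle, 5.26 with histidine and 4.78 with 6-MP, and 6.17 with both, so the combined library was the highest by a small step. The ratio to vehicle was 1.25-fold (1.16 to 1.35). NTHL1 and PKD1 overlap TSC2 on the opposite strand. NTHL1, a DNA glycosylase gene, was at 16.3, 17.4, 16.1 and 8.23 FPKM in the 4 libraries, and PKD1, which has near-identical pseudogene copies, at 6.34, 6.85, 6.41 and 7.67. The kit was stranded, but whether the counting used strand was not given in the sources used here, so the part of these neighbours in the TSC2 value was not tested. DEPTOR (ENSG00000155792, chr8:119873717-120050918, plus strand), which encodes an inhibitor bound to the kinase itself, rested on 9, 14, 12 and 9 reads. At 0.239, 0.344, 0.298 and 0.266 FPKM it fell below the background filter, and no difference was detectable at this depth: its ratio of combined treatment to vehicle had an interval from 0.390- to 3.16-fold.

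RRAGC (ENSG00000116954, chr1:38838198-38859772, minus strand) and RRAGD (ENSG00000025039, chr6:89364616-89412273, minus strand) encode alternative partners of RRAGA or RRAGB in the heterodimer that brings mTORC1 to the lysosome. RRAGC was at 2.28 FPKM with vehicle, 2.18 with histidine and 2.47 with 6-MP, and 3.02 with both. RRAGD was at 12.6, 12.2, 12.9 and 16.1 FPKM. Both were highest in the combined library, RRAGC by 1.32-fold over vehicle (1.07 to 1.63) and RRAGD by 1.28-fold (1.17 to 1.40). Under median-ratio scaling the interval of RRAGC included no difference from vehicle, at -0.057 to 0.55 on the log2 scale. For RRAGC the excess over 6-MP alone was within counting error (1.22-fold, 0.996 to 1.49). RRAGC contributed 15.2% to 16.0% of their sum in all 4 libraries, so RRAGD was the main partner transcript under every treatment.

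EIF4EBP1 (ENSG00000187840, chr8:38030534-38060365, plus strand) and EIF4EBP2 (ENSG00000148730, chr10:70404145-70428618, plus strand) encode the repressors of the cap-binding protein eIF4E. EIF4EBP1 was at 84.8 FPKM with vehicle, 83.1 with histidine and 87.8 with 6-MP, and 65.6 with both. The combined library was the low one, at 0.774-fold of vehicle (0.704 to 0.851) and 0.747-fold of 6-MP (0.681 to 0.820). EIF4EBP1 was the only member below vehicle in that library, except under median-ratio scaling, where EIF4EBP2 and DEPTOR also were. EIF4EBP2 was at 45.5, 48.7, 50.5 and 48.5 FPKM. Vehicle was its lowest library, and the ratios to vehicle were 1.07-fold with histidine (1.03 to 1.11), 1.11-fold with 6-MP (1.07 to 1.15) and 1.07-fold with both (1.02 to 1.11). Its interval was narrow because of 4682 to 5807 reads per library, and the direction of the last ratio turned with scaling, from a log2 fold change of 0.090 to -0.063 when libraries were scaled by their median ratio. The ratio of EIF4EBP1 to EIF4EBP2 was 1.86 with vehicle, 1.70 with histidine and 1.74 with 6-MP, and 1.35 with both.

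**Figure D2:**
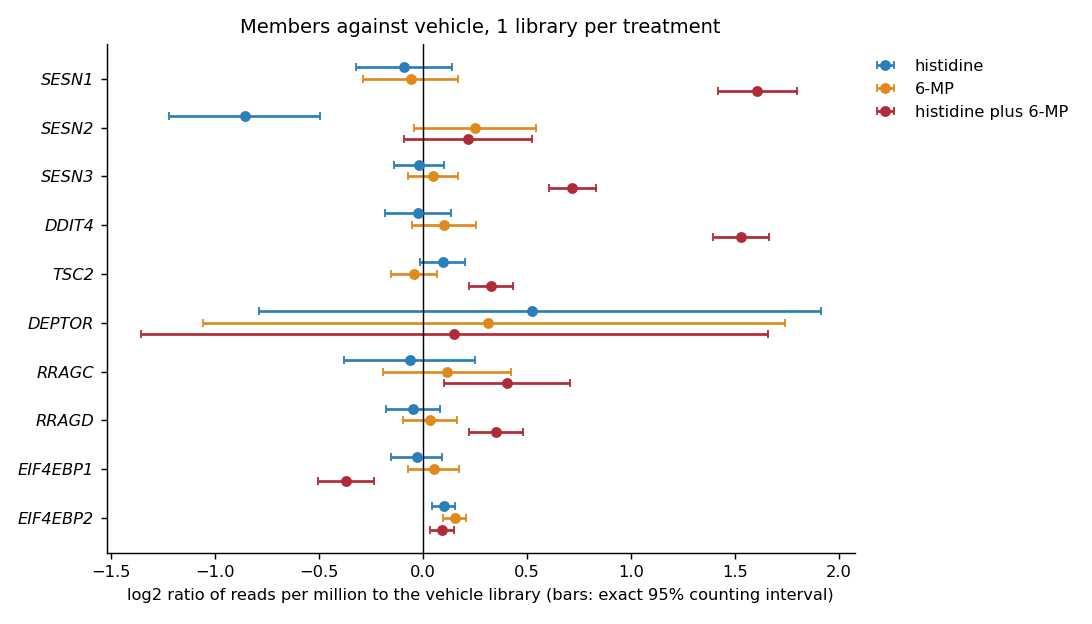
Log2 ratio of depth-scaled reads to the vehicle library for the 10 genes, with exact Clopper-Pearson 95% counting intervals, for the histidine, 6-MP and combined libraries (1 library each). The combined treatment gives the points farthest to the right, at 1.61 for SESN1 and 1.53 for DDIT4, the lowest point is SESN2 with histidine at -0.86, and the DEPTOR intervals span 0 widely.

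Counts were taken over the 9 members whose mean FPKM reached 1, all of which were above 1 FPKM in every library. For the combined treatment against vehicle 2 of 9 (SESN1 and DDIT4) had a log2 fold change of 1 or more in size. Among all 12750 genes 6.53% passed the same threshold, and 5.01% passed it upward, the direction of both members. The interval of the read ratio excluded 0 for 8 of 9 members, 7 higher and 1 lower, where SESN2 was the exception, against 63.5% of all genes. The members' median log2 fold change was 0.29, beside 0.13 for all genes. Over all genes 5447 were higher and 2651 lower by their intervals. Median-ratio scaling shifted the log2 read ratios of this comparison by -0.156, and the log2(FPKM + 1) values by less in low genes. Under it 5 members were higher and 2 lower, beside 3855 higher and 3922 lower over all genes, and the members' median was 0.18, beside 0.001 for all genes.

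The same 2 members passed a log2 fold change of 1 against 6-MP alone, where 6.02% of all genes did, and against histidine alone, where 5.55% did. SESN2 stood at 0.79 against histidine and passed there as a further member with a pseudocount of 0.1 (1.03) or TPM scaling (1.005). The 3 comparisons share the combined library and are therefore not independent. By the intervals, 7 of 9 members differed from 6-MP, against 63.4% of all genes, and 8 of 9 differed from histidine, against 63.2%. For histidine against vehicle no member passed a log2 fold change of 1, a threshold passed by 1.33% of all genes, and 2 of 9 members (SESN2 lower, EIF4EBP2 higher) had intervals that excluded 0, against 21.6%. For 6-MP against vehicle no member passed the fold, which 1.18% of all genes did, and 1 of 9, EIF4EBP2, had an interval that excluded 0, against 17.9%.

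Whether the combined library went beyond the sum of both single treatments was measured on the log2(FPKM + 1) scale. The histidine and 6-MP values were subtracted from the sum of the combined and vehicle values. The FPKM that additivity gives were taken without the added 1, so they go with the departures on the read scale. SESN1 departed by 1.53 (1.76 on the read scale), with 13.1 FPKM where additivity of the log2 FPKM gives 3.88. DDIT4 departed by 1.41 (1.45 on the read scale), with 60.3 FPKM where additivity gives 22.0. These 2 of 9 members passed 1, as did 6.76% of all genes. SESN3 departed by 0.62, and its interval on the read scale was 0.53 to 0.85. SESN2 departed by 0.59 (0.82 on the read scale, 0.37 to 1.27). It was low with histidine and close to vehicle with both, at 4.08 FPKM where additivity gives 2.31. RRAGD and TSC2 departed upward by 0.34 and 0.23, and EIF4EBP1 and EIF4EBP2 downward, by -0.39 and -0.16. The interval of RRAGC included 0. The median departure was 0.34 for the members and 0.11 for all genes.

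By level per length, the order with vehicle was EIF4EBP1, EIF4EBP2, DDIT4, RRAGD, SESN3, TSC2, SESN1, SESN2, RRAGC and DEPTOR. The read ratio of each gene to the next, scaled by length, had a counting interval above 1 throughout, the closest pair being TSC2 and SESN1 at 1.14 (1.01 to 1.30). These intervals leave out any error in the gene lengths, on which an order across genes also depends. TSC2 was divided by 19128 bases and has 69 annotated transcripts, so its place is uncertain. The part of gene length in the order was not tested. The same order held with histidine except that SESN2 moved below RRAGC, from which it did not differ beyond counting error (ratio of RRAGC to SESN2 1.13, 0.878 to 1.45). With 6-MP SESN2 stood above SESN1, and SESN2 did not differ beyond counting error from TSC2 above it (1.14, 0.991 to 1.32) or from SESN1 (1.01, 0.848 to 1.20). With the combined treatment DDIT4 stood next to EIF4EBP1, at 60.3 and 65.6 FPKM, a pair within counting error (1.09, 0.997 to 1.19), and above EIF4EBP2. SESN1 had moved above TSC2 and SESN3.

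The protein-coding genes most like each sestrin were found by the Euclidean distance of their 3 log2 fold changes against vehicle, over 9996 candidates and the 4 libraries. Nearest to SESN1 were PIDD1, a death-domain gene (distance 0.079), GIMAP4, a lymphocyte GTPase gene (0.085), and EFNB1, which encodes ephrin-B1 (0.10). PIDD1 was at 10.6, 9.95, 9.64 and 29.4 FPKM in the order vehicle, histidine, 6-MP and both, GIMAP4 at 8.59, 7.63, 8.48 and 24.6, and EFNB1 at 11.6, 11.8, 11.2 and 33.5. Nearest to SESN2 were HRAS (0.11), NXPH4 (0.18) and ZSWIM4 (0.21), with HRAS at 6.74, 3.74, 7.66 and 7.48 FPKM and thus also lowest with histidine. Nearest to SESN3 were DMXL1 (0.014), STX5 (0.024) and ANKRD26 (0.027). Within a distance of 0.1 lay 124 genes for SESN3, 2 for SESN1 and 0 for SESN2. The counting interval of SESN2 for histidine against vehicle, -1.22 to -0.50 on the log2 scale, was wider than that distance. The counts therefore do not show how common each pattern was.

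The other genes of the pathway were taken from a list of 71 genes in 16 groups, of which 70 were in the table and 63 reached a mean FPKM of 1. In the combined library against vehicle 1 of 63 passed a log2 fold change of 1, beside 6.53% of all genes. The interval excluded 0 for 40 of 63, 22 higher and 18 lower, a share of 63.5% and the same as for all genes. Their median log2 fold change was 0.02, below the 0.13 of all genes. Under median-ratio scaling the split was 12 higher and 29 lower, so the direction of small differences in this list depended on the scaling. With histidine alone 12 of 63 and with 6-MP alone 13 of 63 differed from vehicle by their intervals, beside 21.6% and 17.9% of all genes. None passed the fold threshold, which 1.33% and 1.18% of all genes did. From 6-MP alone the combined library differed for 40 of 63 genes and from histidine alone for 39, beside 63.4% and 63.2% of all genes. In each, 1 gene was past the threshold, beside 6.02% and 5.55% of all genes.

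The gene past the fold in all 3, on the scale of the deposited values, was DDIT3, which encodes the stress transcription factor CHOP and belongs to the factors known to induce sestrins or REDD1. It was at 3.10 FPKM with vehicle, 2.91 with histidine and 3.04 with 6-MP, and 7.47 with both, a ratio to vehicle of 2.41-fold (1.75 to 3.35) on 58 and 126 reads. Its log2 fold changes were 1.05 against vehicle, 1.07 against 6-MP and 1.11 against histidine. Under median-ratio scaling they were 0.915, 0.942 and 1.0001, so that DDIT3 no longer passed against vehicle or 6-MP. It also departed from additivity by 1.13. Of the 8 factors in this group that reached a mean FPKM of 1, 5 were higher and 1 was lower by their intervals in the combined library, and 4 and 2 under median-ratio scaling, beside the all-gene splits of 5447 to 2651 and of 3855 to 3922. Chosen after their values were seen, FOXO1 was at 27.4 FPKM with both against 18.5 with vehicle, HIF1A at 30.7 against 24.7, and ATF4, which acts upstream of DDIT3, at 269.7 against 271.4. Under median-ratio scaling the log2 fold changes against vehicle were 0.40 for FOXO1 and 0.15 for HIF1A. ATF4 was lower under that scaling, at -0.16 (-0.21 to -0.12 for the read ratio).

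DDIT4L, which encodes REDD2, was at 10.6, 11.9, 9.71 and 18.9 FPKM, so both REDD genes were highest in the combined library, with log2 fold changes against vehicle of 0.78 for DDIT4L and 1.48 for DDIT4. Genes of the kinase complex, its inhibitor PRAS40 and its lysosomal anchor differed by smaller steps. MLST8, a core subunit, was at 9.21 FPKM with both against 11.5 with vehicle. In the group of core subunits and their inhibitors 3 of the 4 genes were lower by their intervals. Under median-ratio scaling all 4 were, MTOR turning from a log2 fold change of 0.007 to -0.14. Over all genes 5447 were higher and 2651 lower, or 3855 and 3922 under that scaling. MAPKAP1, a subunit of mTORC2, was at 12.1 against 15.8 FPKM. RRAGB, a Rag partner of the members RRAGC and RRAGD, was at 12.7 against 10.1 FPKM, LAMTOR3 of the Ragulator scaffold at 9.05 against 7.21, and both calls were lost under median-ratio scaling. Of the 5 Ragulator genes 1 was higher and 2 were lower by their intervals, or 0 and 3 under that scaling. TSC1, the partner of TSC2, was at 4.81 against 4.41, a log2 fold change of 0.11 that turned to -0.023 under median-ratio scaling.

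Complexes and sensors of the amino acid arm, among them those through which sestrins act, were mixed. Over all genes 5447 were higher and 2651 lower by their intervals, or 3855 and 3922 under median-ratio scaling. NPRL2 of GATOR1 was at 5.75 FPKM with both against 4.05 with vehicle, a log2 fold change of 0.42. SEH1L, a subunit that the sestrin-binding complex GATOR2 shares with the nuclear pore, was at 5.70 against 9.42 FPKM (-0.64), and 2 GATOR2 genes were higher and 2 lower by their intervals, or 1 and 3 under median-ratio scaling. KICS2 of KICSTOR was at 1.21 against 2.64 FPKM (-0.72). FNIP1, a folliculin partner, was at 6.43 against 4.10 FPKM (0.54), and SAMTOR, the S-adenosylmethionine sensor, at 4.96 against 3.32 (0.46). All 3 amino acid sensor genes that reached a mean FPKM of 1 were higher by their intervals, but under median-ratio scaling only 1 of them was.

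Downstream of the kinase, the cap-binding factors were lower with EIF4EBP1. EIF4E, the cap-binding protein that the 4E-BPs sequester, was at 10.2 FPKM with both against 17.7 to 19.2 in the other libraries, a log2 fold change against vehicle of -0.86, or -1.002 under median-ratio scaling, where it passed the threshold. EIF4E, EIF4G1 and EIF4A1, the 3 genes of this group beside the members that reached a mean FPKM of 1, were all lower by their intervals, under median-ratio scaling too. Of all 12750 genes 2651 were lower, or 3922 under that scaling. EIF4A1 was listed at 1.03 to 2.12 FPKM, a low value for a translation factor, and its level is uncertain. Genes that overlap a gene can take its reads in counting, and whether this happened for EIF4A1 was not tested. PDCD4, an S6 kinase target that inhibits eIF4A, was at 6.51, 6.12, 8.69 and 11.95 FPKM, and its 6-MP library was already 1.33-fold above vehicle (1.18 to 1.51). PRKAB1, an AMPK subunit gene, was at 7.02, 7.52, 6.51 and 12.1 FPKM.

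**Figure D3:**
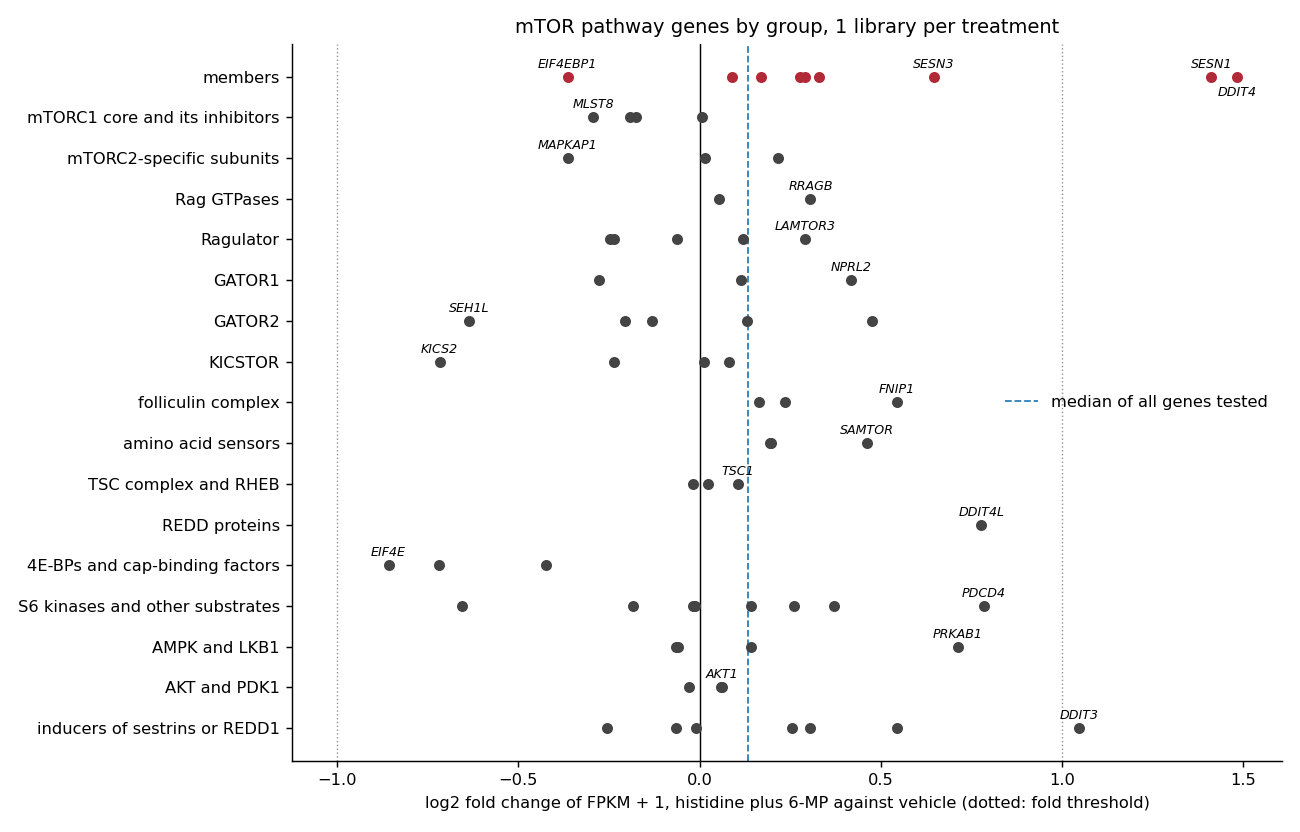
Log2 fold change of FPKM + 1, histidine plus 6-MP against vehicle, for the 9 members and 61 of the 63 other mTOR pathway genes that reached a mean FPKM of 1, 1 point per gene and 1 line per group, with the shown gene farthest from 0 named in each group and 4 members named. The dashed line is the median of all genes (0.13), the dotted lines mark a log2 fold change of 1 in either direction, and SESN1, DDIT4 and DDIT3 lie to the right of the right-hand one.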

How the data were processed

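The 4 libraries of poly(A) RNA from Reh-6-MPR cells, 1 per treatment, were grouped by the sample labels. The authors deposited FPKM per gene, made by a service company. The submitters' processing notes list Trimmomatic, HISAT2, Cufflinks and HTSeq and the builds hg38 and GRCh38, and their settings are not given in the sources used here. The study used DESeq2, which was not repeated because there are no replicates. The 10 members, the pathway list, the named-gene rule and the motifs were chosen with earlier results of these data known.

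Within a gene, deposited FPKM are whole multiples of 1 read, and reads came out whole for 29832 of 29833 genes. The shortest gene length that gives whole reads was multiplied by up to 6 for 1393 genes where that came within 10% of its GENCODE 29 length, a rule chosen once the recovered totals were known. Recovered reads summed to 99.9% of the denominators in each library. Fold changes were differences of log2(FPKM + 1) over genes whose mean FPKM reached 1. Exact Clopper-Pearson intervals were put on read ratios between libraries and, scaled by length, between genes, exact Poisson intervals on levels, and a normal-approximation counting interval on the departure from additivity. Reads are not independent molecules, so intervals cover counting error only. Ratios given as folds come from reads, and log2 fold changes from FPKM.

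Named were all members, pathway genes past a log2 fold change of 1 in any of the 5 comparisons, the gene farthest from 0 in each pathway group for the combined treatment against vehicle, and the 3 protein-coding genes nearest to each sestrin. Others are marked as chosen after their values were seen, and so are MTOR, EIF4G1, EIF4A1, NTHL1 and PKD1. KICS2 and SAMTOR are listed in the table as C12orf66 and BMT2. Alternatives were another pseudocount, no filter or a higher one, median-ratio and TPM scaling, and other fold thresholds. Of the pathway list, 2 genes enter the counts but are not reported here by name, nor is 1 further motif that was searched. Scripts were tested on simulated data. The tools were scipy 1.17.1, pandas 2.3.3, numpy 2.4.6 and matplotlib 3.10.9 under Python 3.11.15.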

Additional observations from a re-analysis of the deposited data

Results flagged for a closer look

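EIF4EBP2 moved in opposite directions when histidine was added without and with 6-MP. Its log2 fold change was 0.098 for histidine against vehicle (counting interval of the read ratio 0.044 to 0.16) and -0.059 for histidine plus 6-MP against 6-MP (-0.12 to -0.0046). The difference between them is its departure from additivity, -0.16 on the read scale with a counting interval of -0.24 to -0.082. That interval covers counting error only. Each effect rests on 1 library per treatment, so the difference was not tested against replicates. The sizes of the log2 fold changes depended on the scaling, though their signs did not. They were 0.074 and -0.20 under median-ratio scaling, and 0.11 and -0.039 under TPM scaling.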

How the results depend on the processing

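Leaving out a replicate did not apply, and a blocked fit could not be made. No paired analysis was possible because the labels give no replicate numbers and no treatment has a second library. Counts past the fold threshold depended on where it was set. At a log2 fold change of 1.5 in place of 1, 0 members passed for the combined treatment against vehicle, 0 against 6-MP and 1 against histidine, and the whole pathway list including the members also gave 0, 0 and 1, in place of 2 members and 3 list genes in each. At 0.5, the members gave 1 for histidine against vehicle and 4 for the combined treatment against histidine, and against vehicle the pathway list gave 2 with histidine and 1 with 6-MP, and 14 with both, and for the combined treatment 14 against 6-MP and 16 against histidine. A pseudocount of 0.1 gave 1 pathway gene for 6-MP against vehicle and 5 for the combined treatment against histidine, and TPM scaling gave 1 for 6-MP against vehicle. Median-ratio scaling moved the members' median for the combined treatment against 6-MP from 0.30 to 0.16. Both scalings kept SESN1 and DDIT4 past 1 in all 3 comparisons, with SESN1 at 1.27 and DDIT4 at 1.33 against vehicle under median-ratio scaling. Directions turned for DEPTOR and EIF4EBP2 against vehicle under median-ratio scaling (-0.001 and -0.063) and for EIF4EBP2 against histidine under TPM scaling (0.014). DEPTOR, at 9 to 14 reads, is below what this depth resolves.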
